A study of Homo sapiens with 9 samples.

Results

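The miR-183 cluster is a set of 3 human miRNAs made from a single primary transcript. Its guide strands, hsa-miR-183-5p, hsa-miR-96-5p and hsa-miR-182-5p, written below without the species prefix, were taken by name from the small RNA count table and make up 3 of its 2652 mature miRNA names. They were followed in 9 libraries of ES-2 cells, an established line derived from an ovarian cancer, labelled wild type and untreated. The libraries came from a miTRAP experiment, in which a bait RNA with MS2 loops is held on amylose resin by a maltose-binding MS2-binding fusion protein and retains miRNAs from a cell lysate. Input libraries (n = 3) held RNA of ES-2 lysate. MS2 control libraries (n = 3) held RNA retained by the loops alone. PD-L1 3'UTR libraries (n = 3, called PD-L1 libraries below) held RNA retained by the 3'UTR of PD-L1 (gene CD274), the ligand through which tumour cells restrain T cells. Cells, genotype and treatment did not differ between the groups. The study used unequal amounts of the 2 bait RNAs, so bait sequence and bait amount cannot be told apart. ES-2 is 1 cell line, and the lysates are bulk samples, in which fewer cells with a miRNA and less of it per cell cannot be told apart.

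miRNAs guide Argonaute proteins to mRNAs, mostly through their seed, bases 2 to 8 counted from the 5′ end, which pairs with sites in 3'UTRs. The miR-183 cluster is best known from sensory organs, where it is abundant in hair cells and photoreceptors. In many carcinomas its members are raised, and FOXO transcription factors are among their known targets. The guide strand of each hairpin is the one usually kept in Argonaute, and the partner (3p) strand is usually degraded.

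The guide sequences are printed because the members differ in their seeds, which are in capitals. Sequences and positions are those of RefSeq on GRCh38.p14, and the submitters' processing notes name hg38 as well.
hsa-miR-183-5p: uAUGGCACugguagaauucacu
hsa-miR-96-5p: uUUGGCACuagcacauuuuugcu
hsa-miR-182-5p: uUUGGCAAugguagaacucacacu

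All 3 lie on the minus strand of chromosome 7, miR-183-5p at chr7:129774967-129774988, miR-96-5p at chr7:129774739-129774761 and miR-182-5p at chr7:129770447-129770470. The hairpin genes MIR183 and MIR96 are 135 bases apart, and MIR182 lies 4199 bases beyond MIR96. No other RefSeq gene overlaps the 4632 bases from MIR182 to MIR183, so the hairpins are intergenic in this annotation. Each member has a single locus in the count table, so none was summed over copies.

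Positions are counted from 1 at the 5′ end, and in each difference the base of the miRNA named first stands first. miR-182-5p and miR-96-5p differ at 1 seed base, A8C. miR-96-5p and miR-183-5p differ at 1 other seed base, U2A. miR-182-5p and miR-183-5p differ at both, U2A and A8C. Beyond the seed the order is another. miR-182-5p and miR-183-5p are identical at 12 of 14 compared positions after base 8, miR-96-5p and miR-183-5p at 6 of 14, and miR-182-5p and miR-96-5p at 5 of 15. Of the 2363 names of the table that matched a RefSeq sequence, none other carried the seed of miR-183-5p or of miR-182-5p, and miR-1271-5p alone shared the seed of miR-96-5p.

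Depth was 3794799 to 5983577 counts in the input, 1156261 to 2236535 in the MS2 control and 672824 to 1237652 in the PD-L1 libraries. Levels are given as CPM, counts scaled to a common library size, here with trimmed mean of M values (TMM) factors, on which 3 counts were worth 0.68 to 4.02 CPM. PD-L1 replicate 1 stood apart by muscle, blood, liver and epithelial miRNAs, and not by neuronal ones. As plain CPM by library total, the summed level of 3 muscle miRNAs was 2093 there, 31.7 at the lowest among the PD-L1 libraries, 50.5 to 163 in the MS2 control and 1.18 to 3.16 in the input. The summed level of 6 blood miRNAs was 1625 there, against 607 at the lowest in its group, 355 to 448 in the MS2 control and 149 to 200.2 in the input. miR-122-5p, the liver miRNA, was at 183 there, 0 at the lowest in its group, 45.8 to 58.8 in the MS2 control and 1.17 to 2.57 in the input. The summed level of 6 epithelial miRNAs was 346 there, 41.5 at the lowest in its group, 63.0 to 97.4 in the MS2 control and 30.8 to 41.9 in the input. The summed level of 2 neuronal miRNAs was 708 there, and 424 and 724 in PD-L1 replicates 2 and 3. It was 98.2 to 155 in the MS2 control and 155 to 186 in the input libraries. Among these markers, miR-133a-3p of muscle was at 0 counts in every input and MS2 control library, miR-144-3p of erythroid cells was at 0 in all libraries but MS2 control replicate 3, and miR-124-3p of neurons was at 0 in all but PD-L1 replicate 1 and MS2 control replicate 2. Results are therefore also given without PD-L1 replicate 1, and the part of these markers' sources in the members' levels was not tested. The labels do not tie the replicates to separate cultures, so p values measure the spread between these samples only.

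All 3 members were abundant in ES-2 cells. By mean input CPM, miR-182-5p was 38th, miR-183-5p 41st and miR-96-5p 85th among the 408 miRNAs that passed the filter on low counts, which all 3 members passed. Together they made up 0.447% ± 0.017 (SD, n = 3) of the input counts. Although all 3 hairpins come from the same transcript, their guide strands stood at unequal read levels in the input.

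The members moved apart on the PD-L1 3'UTR bait. miR-183-5p was 1.95-fold lower than in the MS2 control and 2.34-fold lower than in the input. miR-182-5p was 1.44-fold and 1.49-fold higher. miR-96-5p did not pass the test in either comparison.

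For miR-183-5p, the input libraries held 2534, 2316 and 2638 CPM for replicates 1, 2 and 3. The MS2 control libraries held 1926, 2282 and 2029 CPM. The PD-L1 libraries held 967, 1167 and 1069 CPM. All PD-L1 libraries lay below all others, and the lowest input library lay just above the highest MS2 control library. The order of the means was input (2496 CPM ± 164, SD, n = 3), MS2 control (2079 ± 183) and PD-L1 3'UTR (1068 ± 100.1), of which the neighbours input and MS2 control did not pass the test. These values rest on 870 to 11710 counts per library.

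For miR-182-5p, the input libraries held 3012, 2718 and 2699 CPM. The MS2 control libraries held 2466, 3412 and 2796 CPM. The PD-L1 libraries held 3686, 4095 and 4742 CPM. All PD-L1 libraries lay above all others, while input and MS2 control overlapped. The order of the means was PD-L1 3'UTR (4174 CPM ± 532, SD, n = 3), MS2 control (2891 ± 480.1) and input (2809.7 ± 175), and the last pair differed by less than their spread. Counts ran from 3052 to 11982 per library.

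For miR-96-5p, the least abundant member, the input libraries held 667, 527 and 578 CPM. The MS2 control libraries held 399, 739 and 633 CPM. The PD-L1 libraries held 899.8, 675 and 819.9 CPM. The lowest PD-L1 library lay just above the highest input library and below the highest MS2 control library. The means were 798 CPM ± 114 (SD, n = 3) with the PD-L1 bait, 591 ± 70.8 in the input and 590.2 ± 174 in the MS2 control, and no neighbours in this order passed the test. Counts ran from 503 to 2566 per library.

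**Figure D1:**
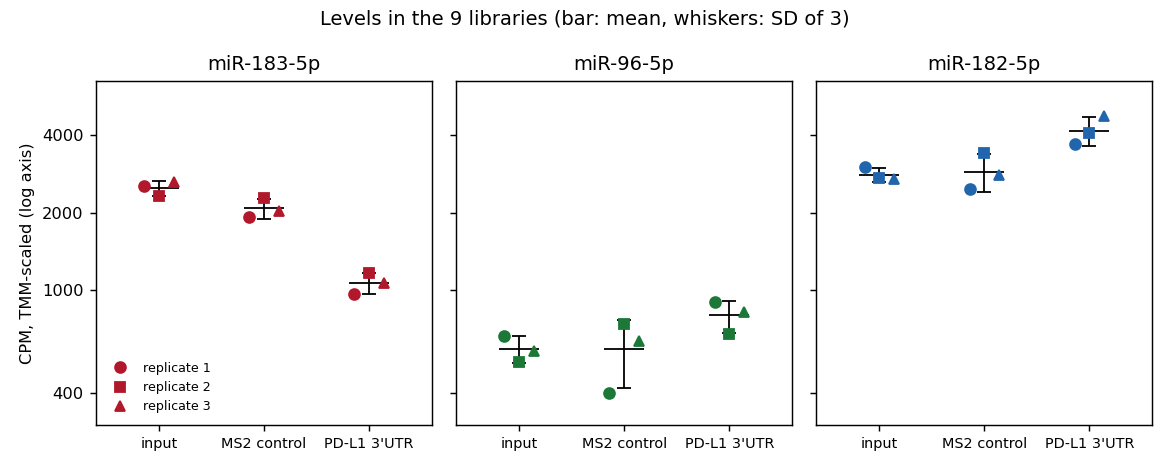
Levels of miR-183-5p, miR-96-5p and miR-182-5p in the 9 libraries, as TMM-scaled CPM on a log axis, with 1 symbol per replicate, the mean as a bar and the SD of 3 libraries as whiskers. The PD-L1 libraries sit at 967 to 1167 CPM for miR-183-5p, below all others, and at 3686 to 4742 CPM for miR-182-5p, above all others, and for miR-96-5p they overlap the MS2 control.

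Setting the PD-L1 libraries against the MS2 control libraries asks what the 3'UTR held back that MS2 loops and resin did not. In the quasi-likelihood test of edgeR, fitted to all 408 miRNAs with Benjamini-Hochberg adjustment and a threshold of 0.05, 1 of 3 members was higher and 1 of 3 was lower. Over all miRNAs tested, 31.4% were higher and 28.7% were lower, 60% in all, so a call in either direction was common. miR-183-5p fell by 0.96 on the log2 scale (edgeR adjusted p of 8.61e-05, SE 0.13), lower in 3 of 3 libraries than in any MS2 control library. miR-182-5p rose by 0.53 (edgeR adjusted p of 0.0104, SE 0.15), higher in 3 of 3 libraries than in any MS2 control library. The libraries of the groups did not overlap for these 2 members, as for 65.7% of all miRNAs tested. miR-96-5p stood at 0.44 ± 0.22 (SE) on the same scale (edgeR adjusted p of 0.118), with overlapping libraries. The median of the 3 members was 0.44, beside 0.02 over all miRNAs tested.

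Without PD-L1 replicate 1, the edgeR values against the MS2 control were -0.86 for miR-183-5p (adjusted p of 0.000347), 0.65 for miR-182-5p (adjusted p of 0.00336) and 0.38 for miR-96-5p (adjusted p of 0.190). The fall of miR-183-5p passed the test under all 17 alternatives, from -1.08 to -0.86. The rise of miR-182-5p no longer passed without input replicate 2 (0.41), MS2 control replicate 3 (0.48) or PD-L1 replicate 3 (0.43), or with miRNAs under a mean of 10 CPM left out (0.43, edgeR adjusted p of 0.0564). miR-96-5p passed without MS2 control replicate 2, the highest of that group (0.61, edgeR adjusted p of 0.0425).

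Against the input, which asks what was retained relative to the supply in the lysate, again 1 of 3 members was higher and 1 of 3 was lower by edgeR, beside 34.1% higher and 32.4% lower, 66.4% in all, over the miRNAs tested. This comparison shares its PD-L1 libraries with the previous one. miR-183-5p fell by 1.23 on the log2 scale (edgeR adjusted p of 1.89e-05, SE 0.13). miR-182-5p rose by 0.57 (edgeR adjusted p of 0.00652, SE 0.15). miR-96-5p had 0.44 ± 0.22 (SE, edgeR adjusted p of 0.110). The libraries of the 2 groups did not overlap for any of the 3 members, as for 74.8% of all miRNAs tested. The median of the members was 0.44, beside 0.04 over all tested.

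miR-183-5p passed in both comparisons in the lower direction, as did 15.9% of the miRNAs tested, and miR-182-5p in the higher direction, as did 18.9%. Without PD-L1 replicate 1 the values against the input were -1.21 for miR-183-5p (edgeR adjusted p of 3.0e-05), 0.60 for miR-182-5p (adjusted p of 0.00494) and 0.29 for miR-96-5p (adjusted p of 0.290). The rise of miR-182-5p over the input lost its call without input replicate 2 (0.44), input replicate 3 (0.36), MS2 control replicate 3 (0.38) or PD-L1 replicate 3 (0.40), and with no filter (0.31, edgeR adjusted p of 0.269). With libraries scaled by their totals alone, the median of all miRNAs against the input was 0.60, the split of calls was 192 higher and 89 lower in place of 139 and 132, and the members had -0.66, 1.01 (miR-96-5p, edgeR adjusted p of 0.00136) and 1.14 (miR-182-5p). Relative to the median of all miRNAs, they stood at -1.26, 0.40 and 0.54 under both scalings.

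The MS2 control against the input shows what the loops and resin retained. By edgeR, 0 of 3 members passed in either direction, beside 32.8% higher and 37% lower, 69.9% in all, over the miRNAs tested. None had an unadjusted p under 0.05, and DESeq2 called 0 as well. miR-183-5p stood at -0.26 ± 0.13 (SE) on the log2 scale (edgeR adjusted p of 0.0893), with libraries that did not overlap, as for 75.5% of all miRNAs tested. miR-96-5p had -0.00 ± 0.22 and miR-182-5p had 0.04 ± 0.15, both with overlapping libraries. The signs depended on the scaling. By library totals, with 199 miRNAs higher and 104 lower in place of 134 and 151, the 3 values became 0.36, 0.62 and 0.66 beside a median of 0.65 over all miRNAs, and 3 of 3 members were called higher (edgeR adjusted p of 0.0158, 0.0194 and 0.00123). Relative to those medians miR-183-5p stood at -0.29 under both scalings. With TMM factors, its value passed the test in the lower direction without PD-L1 replicate 1 (-0.35, edgeR adjusted p of 0.0291) or replicate 2 (-0.35, edgeR adjusted p of 0.0332), and with no filter (-0.52, edgeR adjusted p of 0.0414). The fit takes its spread from all libraries it holds.

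**Figure D2:**
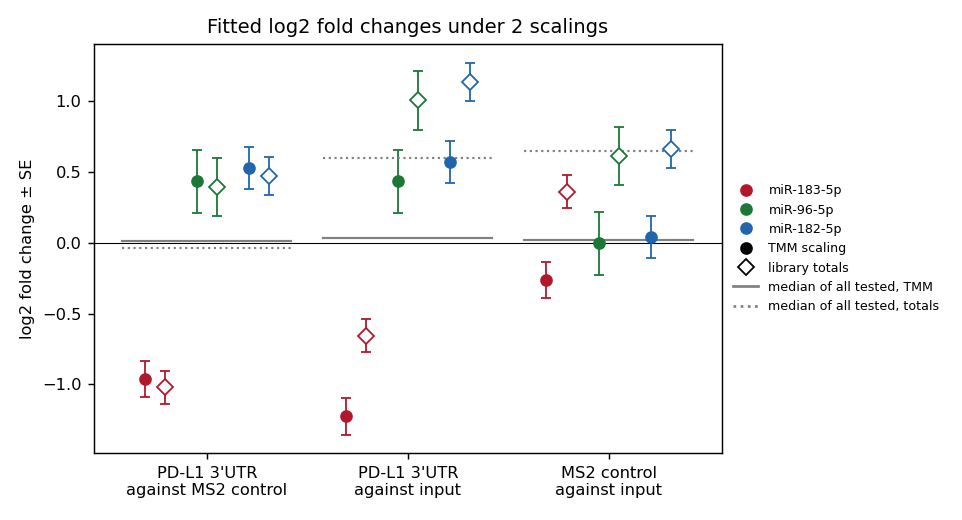
Log2 fold changes of the 3 members in the 3 comparisons from the edgeR fit with SE as error bars, filled circles with TMM factors and open diamonds with library totals, with grey lines at the median of all miRNAs tested, solid for TMM and dotted for totals. With TMM, miR-183-5p lies at -0.96 and -1.23 and miR-182-5p at 0.53 and 0.57 in the comparisons of the PD-L1 bait, and the change of scaling moves the members and the medians together, by most against the input.

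A ratio of members within a library does not depend on how libraries are scaled. The ratio of miR-182-5p to miR-183-5p counts was 1.19, 1.17 and 1.02 in the input libraries. It was 1.28, 1.49 and 1.38 in the MS2 control and stood at 3.81, 3.51 and 4.43 on the PD-L1 bait. The 2 guides thus had close to equal read counts in the input libraries, which need not be their amounts in the lysate. By reads, miR-182-5p was in clear excess in all 3 libraries of the 3'UTR bait, and the ratio did not overlap between any of the groups. How often ratios of other miRNA pairs do not overlap was not computed. For levels of single miRNAs that share was 65.7% to 75.5%, depending on the comparison. The ratio was 2.82-fold higher with the PD-L1 bait than in the MS2 control, a difference of 1.50 in mean log2 ratio (SE 0.12). Against the input it was 3.46-fold higher (difference of 1.79, SE 0.12). Between MS2 control and input it differed by 1.23-fold (difference of 0.30, SE 0.09). Each of these had a p of 0.1 by a two-sided exact permutation test, the smallest that 3 against 3 libraries allow, and 0.18 after adjustment over the 9 ratio comparisons, so the design could not reach 0.05. Without PD-L1 replicate 1 the first 2 differences were 1.51 and 1.81.

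The ratio of miR-96-5p to miR-183-5p was 0.263, 0.228 and 0.219 in the input, 0.207, 0.324 and 0.312 in the MS2 control and 0.931, 0.579 and 0.767 in the PD-L1 libraries. The PD-L1 libraries lay above all others, while input and MS2 control overlapped. The ratio was 2.70-fold higher than in the MS2 control (difference of 1.43 in mean log2 ratio, SE 0.29) and 3.16-fold higher than in the input (difference of 1.66, SE 0.21), each with an exact permutation p of 0.1 and 0.18 adjusted. Without PD-L1 replicate 1 these differences were 1.27 and 1.50. MS2 control and input differed by 0.22 (SE 0.22, exact permutation p of 0.4, adjusted 0.6).

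The ratio of miR-182-5p to miR-96-5p was 4.52, 5.15 and 4.67 in the input, 6.17, 4.61 and 4.42 in the MS2 control and 4.09, 6.06 and 5.78 in the PD-L1 libraries. All groups overlapped, PD-L1 and input through PD-L1 replicate 1 (4.09), since the other PD-L1 libraries lay above all input libraries. The difference in mean log2 ratio was 0.06 (SE 0.23, exact permutation p of 1) between PD-L1 bait and MS2 control, 0.13 (SE 0.19, exact permutation p of 0.5) between PD-L1 bait and input, and 0.07 (SE 0.16, exact permutation p of 0.9) between MS2 control and input. Without PD-L1 replicate 1 the first 2 differences were 0.24 (exact permutation p of 0.6) and 0.31 (exact permutation p of 0.2). A shift of this ratio was not detectable with 3 libraries a group. For both pairs with miR-183-5p the PD-L1 libraries did not overlap the others, a trait whose share among other miRNA pairs was not computed.

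**Figure D3:**
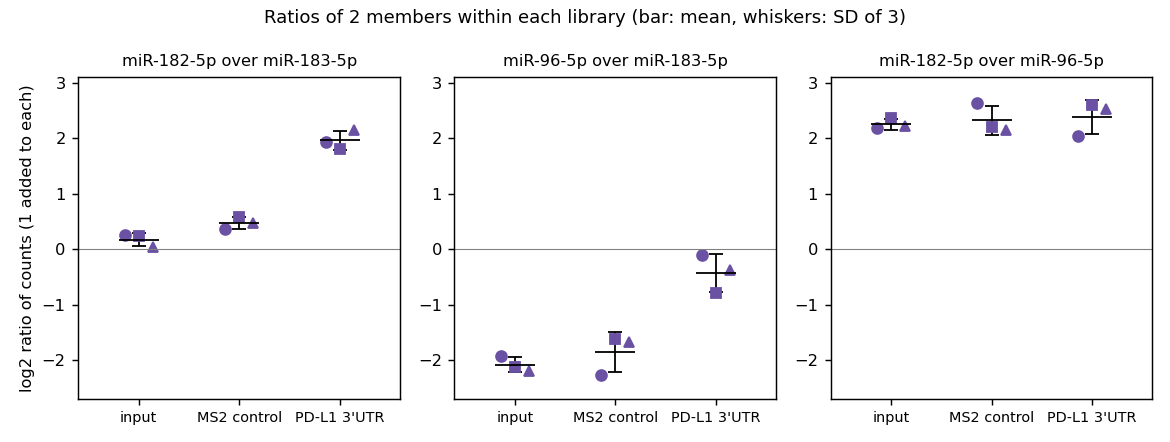
Log2 ratios of counts between pairs of members within each library, with 1 count added to each, a circle, square and triangle for replicates 1, 2 and 3, the mean as a bar and the SD of 3 libraries as whiskers. The mean for miR-182-5p over miR-183-5p lies at 0.17 in the input, 0.47 in the MS2 control and 1.96 with the PD-L1 bait, whereas for miR-182-5p over miR-96-5p it lies at 2.25, 2.32 and 2.39.

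The summed level of the cluster did not show this shift. It was 5896 CPM ± 327 (SD, n = 3) in the input, 5560.4 ± 826 in the MS2 control and 6039.9 ± 546 with the PD-L1 bait, differences smaller than the spread of the MS2 control libraries. As a share of library counts, which is not TMM-scaled, the sum was 0.447% ± 0.017, 0.649% ± 0.068 and 0.678% ± 0.057. Within the sum, the share of miR-183-5p was 42.3% ± 2.00 in the input, 37.6% ± 2.39 in the MS2 control and 17.7% ± 1.79 with the PD-L1 bait. The share of miR-182-5p was 47.7% ± 1.77, 51.9% ± 0.98 and 69.0% ± 2.57, and that of miR-96-5p was 9.99% ± 0.66, 10.5% ± 1.86 and 13.3% ± 2.55.

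The partner strands were near the floor of detection. They are shown because each is cut from the same hairpin as a member.
hsa-miR-183-3p: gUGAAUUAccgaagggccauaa
hsa-miR-96-3p: aAUCAUGUgcagugccaauaug
hsa-miR-182-3p: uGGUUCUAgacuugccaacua

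miR-183-3p had 16, 18 and 25 counts in the input libraries, 0 in each MS2 control library and 14, 2 and 9 counts in the PD-L1 libraries. Its mean was 5.30 CPM ± 0.97 in the input and 6.37 ± 3.62 with the PD-L1 bait (SD, n = 3), and 3 counts in the MS2 control were worth 1.80 CPM on average. Relative to the MS2 control it was thus at least 2.95-fold higher in the input and at least 3.54-fold higher on the PD-L1 bait, although PD-L1 replicate 2 was itself under 3 counts. The PD-L1 libraries held 9.91, 2.68 and 6.53 CPM, with the highest level in replicate 1. The bound without that replicate was not computed. It did not pass the filter on low counts. Its guide, miR-183-5p, was in contrast lower with the PD-L1 bait than in the MS2 control.

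miR-182-3p, the only partner strand tested, had 15, 7 and 25 counts in the input, 31, 42 and 34 in the MS2 control and 20, 4 and 10 in the PD-L1 libraries. As CPM it was 3.98 ± 1.64, 20.8 ± 4.58 and 8.93 ± 4.63 (SD, n = 3), with the MS2 control above all other libraries. Of all miRNAs tested, 75.5% did not overlap between MS2 control and input, and 65.7% between PD-L1 bait and MS2 control. It rose 5.05-fold in the MS2 control over the input (log2 2.34, SE 0.46, edgeR adjusted p of 0.00103). It had -1.16 ± 0.47 (SE, edgeR adjusted p of 0.0518) between PD-L1 bait and MS2 control and 1.18 ± 0.48 (edgeR adjusted p of 0.0521) between PD-L1 bait and input. Without PD-L1 replicate 1 these were -1.64 (edgeR adjusted p of 0.0246) and 0.61 (edgeR adjusted p of 0.365). Both lay close to the threshold, and of 17 alternatives the first passed in 10, from -1.64 to -0.98 over all 17, and the second in 4, from 0.61 to 1.76. miR-96-3p had 2 counts in input replicate 1 and 0 in the other libraries.

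The seed relative of miR-96-5p is encoded on chromosome 5, at chr5:176367960-176367981 on the plus strand, and is printed to show the shared seed.
hsa-miR-1271-5p: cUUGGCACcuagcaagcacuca

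miR-1271-5p had 25, 5 and 10 counts in the input, 3, 4 and 1 in the MS2 control and 14, 7 and 7 in the PD-L1 libraries, and did not pass the filter. Its mean level was 8.13 CPM ± 2.65 with the PD-L1 bait, 3.51 ± 2.68 in the input and 1.43 ± 0.61 in the MS2 control (SD, n = 3). The PD-L1 libraries lay above the MS2 control libraries in CPM, as they did not for miR-96-5p. Libraries of these 2 groups did not overlap for 65.7% of all miRNAs tested, so the trait was common, and here it rests on few counts. Its partner, miR-1271-3p, had 0 counts in all 9 libraries.

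The CD274 3'UTR was searched for the letters that would pair with each seed, on its sense strand only. A 7mer-m8 match pairs with bases 2 to 8, a 7mer-A1 match pairs with bases 2 to 7 and is followed by A, and an 8mer has both. In the GENCODE annotation on GRCh37 the 3'UTR of transcript CD274-202 runs from chr9:5467863-5470554 on the plus strand, 2692 bases. The 2 matches of at least 7 bases are shown because they differ in type and position, with the match in capitals.
miR-182-5p match: aacccgagcagtgTTGCCAAgagg
miR-183-5p match: tcctgatttgccttTGCCATAtaa

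For miR-182-5p there was 1 match, a 7mer-m8 (TTGCCAA) at chr9:5469055-5469061. For miR-183-5p there was 1 match, a 7mer-A1 (TGCCATA) at chr9:5469225-5469231, and none of its 7mer-m8 (GTGCCAT). For miR-96-5p there was no match of its 7mer-m8 (GTGCCAA) or of its 7mer-A1 (TGCCAAA), which is also the 7mer-A1 of miR-182-5p. Its 6 letters for bases 2 to 7 (TGCCAA), shared with miR-182-5p, occur once, inside the miR-182-5p match. No 8mer was found. Among 4588 3'UTRs at least as long, cut to the same length, 35.9% held a match of at least 7 bases for miR-182-5p, 27.7% for miR-183-5p and 32.2% for miR-96-5p, so such matches are common at this length. A match is a description of letters and not a site. Which part of the 3'UTR the bait covered was not analysed, and whether these matches bear on the members' levels was not tested.

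The nearest profile to each member lay outside the cluster. Likeness was measured as the root mean square difference of log2 CPM, each profile centred on its mean over the 9 libraries, against 407 other miRNAs. This describes 9 libraries in 3 groups, so it mostly reads the 3 group means. Nearest to miR-183-5p was miR-942-5p (difference of 0.12), with 92.0, 82.7 and 41.0 CPM in input, MS2 control and PD-L1 3'UTR, followed by miR-26a-5p (0.15) and miR-941 (0.21). miR-96-5p was 112th and miR-182-5p 119th by likeness to miR-183-5p. miR-96-5p and miR-182-5p were each second nearest to the other (0.20). Nearest to miR-96-5p was miR-19a-3p (0.17), and the third was miR-128-3p (0.21). Nearest to miR-182-5p was miR-30d-5p (0.12), at 10876, 10929 and 15259 CPM, and the third was miR-105-5p (0.21).

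The members differed in how they stood among miRNAs of like abundance. In the PD-L1 3'UTR against the MS2 control, miR-183-5p stood at percentile 28.2 of the 408 log2 fold changes, miR-96-5p at 59.3 and miR-182-5p at 62.3. The 2 miRNAs just above and the 2 just below each member by mean input CPM ranged from -2.53 (let-7b-5p) to 3.21 (miR-31-5p). Beside miR-183-5p, at -0.96, miR-92b-3p had 0.16, miR-125a-5p 0.15 and miR-99b-5p -0.15, none of them called. Only let-7b-5p had a larger change. Against the input, where miR-183-5p had -1.23, miR-92b-3p had -1.33, miR-125a-5p 0.94 and miR-99b-5p 1.11, all of them called. There let-7b-5p had 0.08 and was not called. In the comparison with the MS2 control, around miR-182-5p, at 0.53, miR-199b-3p and miR-27b-3p just above had 1.01 and 0.60. Just below it, miR-92b-3p and miR-125a-5p had 0.16 and 0.15. In the same comparison, around miR-96-5p, at 0.44, miR-31-5p and miR-224-5p just above had 3.21 and 0.80. Just below it, miR-503-5p and miR-30b-5p had -0.30 and 2.18.

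**Figure D4:**
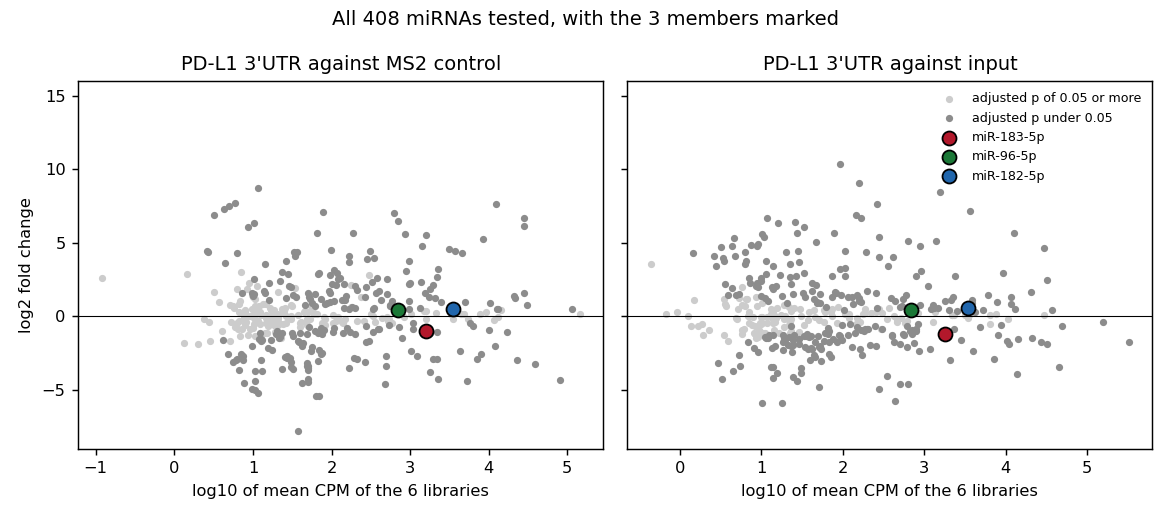
Log2 fold change against the log10 of mean CPM for all 408 miRNAs tested, with the PD-L1 bait against the MS2 control on the left and against the input on the right, dark grey points for an adjusted p under 0.05, and the 3 members in colour. The members lie among the more abundant miRNAs, miR-183-5p at -0.96 and miR-182-5p at 0.53 on the left, where all miRNAs range from -7.81 to 8.72.

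Calls in both directions also occurred in the other cotranscribed set examined. The 2 guides of the cluster of miR-191 and miR-425 were both tested, and against the MS2 control 1 was higher and 1 was lower with the PD-L1 bait by edgeR (median of 0.10), beside the 31.4% higher and 28.7% lower over all miRNAs. Against the input 1 was higher, miR-425-5p (1.06), and 0 were lower (median of 0.33, beside 34.1% and 32.4% over all miRNAs). In the MS2 control against the input the other guide, miR-191-5p, was called higher (0.72), a call that held in 10 of 17 alternatives. There 0 were lower (median of 0.23, beside 32.8% and 37%). With 2 miRNAs, such counts do not stand apart from those shares.

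Of the miR-200 family, epithelial miRNAs often raised in carcinomas as the cluster is, 2 of 5 passed the filter. By edgeR 0 of these 2 passed against the MS2 control (median of 0.75), and 1 was higher against the input (median of 1.71). Between MS2 control and input 0 passed (median of 0.96), and all these counts stand beside the same shares over all miRNAs. Each median is the midpoint of 2 values, -0.42 and 1.93, -0.28 and 3.70, and 0.14 and 1.77 in this order. The lower value was each time that of miR-200c-3p, at 41.3 CPM in the input beside 4.24 for miR-200b-3p. In the edgeR test neither had an unadjusted p under 0.05 in the comparisons with 0 calls, while DESeq2 called 1 of them, miR-200b-3p, higher in both. miR-200b-3p, named after its values were seen, was also the 1 called against the input, and without PD-L1 replicate 1, where the epithelial markers stood highest, it had 1.67 there (edgeR adjusted p of 0.0737) and -0.01 against the MS2 control (edgeR adjusted p of 0.988).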

How the data were processed

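The deposited table holds raw counts per mature miRNA locus in 9 single-end small RNA libraries. Per the submitters' processing notes, the authors used cutadapt 1.18, Bowtie2 2.2.6, featureCounts 1.6.3 and hg38. Per the study's methods, reads were counted on miRBase. Sample titles gave the groups and replicate numbers. Counts were summed over the loci of a name, and 408 names passed edgeR's filterByExpr by group. All 9 libraries entered 1 quasi-likelihood fit of 3 group means with TMM factors (edgeR 4.0.16, R 4.3.3), two-sided, with Benjamini-Hochberg adjustment over the 408 and a threshold of 0.05. TMM takes most miRNAs as unchanged, an assumption that trapping can break. With these factors, 60%, 66.4% and 69.9% of the 408 were called in either direction in the 3 comparisons, which is most of them. The procedure was tested on simulated counts. Ratios had 1 count added to each count for testing and an exact permutation test over libraries (scipy 1.17.1). A fold against a group at 0 was computed against 3 counts per library, which covers counting error only. Alternatives were DESeq2 1.42.0, other scalings, filters, samples and seed matches, separate loci, a replicate block, and leaving out each library.

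The members and lists were chosen with earlier results of these data known. Named besides the members are their partner strands, miR-1271, the 3 nearest profiles to each member and its neighbours in input abundance. The 2 comparison lists are given by counts and medians, with single values added after they were seen. Pairs of replicates all differed beyond sampling noise. The part of the 3'UTR that the bait covered was not analysed here.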

Additional observations from a re-analysis of the deposited data

How the results depend on the processing

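Over 17 alternatives, miR-183-5p kept its direction and its call against the MS2 control (from -1.08 to -0.86) and against the input (from -1.48 to -0.66). Against the MS2 control, miR-182-5p had 0.43 with a mean of at least 10 CPM and 0.41 to 0.66 with 1 library left out, with edgeR adjusted p from 0.00336 to 0.0775. Against the input it had 0.31 with no filter and 0.36 to 0.60 with 1 library left out. miR-96-5p ranged from 0.22 to 0.61 against the MS2 control with 1 library left out, and against the input from 0.23 to 0.43, with 1.01 by library totals and 0.51 by DESeq2 (adjusted p of 0.0313).

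Between MS2 control and input, library totals gave 0.36, 0.62 and 0.66 for miR-183-5p, miR-96-5p and miR-182-5p, and no filter gave -0.52 for miR-183-5p and -0.22 for miR-182-5p. miR-96-5p had 0.074 with DESeq2's size factors, 0.057 with a mean of at least 10 CPM, 0.023 with each locus as its own row and 0.075 by DESeq2. With 1 library left out, miR-183-5p ran from -0.41 to -0.29, miR-96-5p from -0.21 to 0.12 and miR-182-5p from -0.15 to 0.047. The difference in log2 ratio of miR-182-5p to miR-96-5p ran from -0.043 to 0.24 between PD-L1 3'UTR and MS2 control and from -0.080 to 0.16 between MS2 control and input. With no filter, 201 miRNAs were lower on the PD-L1 bait than in the input, against 132. By library totals the medians of all miRNAs moved to 0.60 and 0.65 against the input because this scaling has no factor to centre them; for the other changes the cause was not tested. Counting 6-base matches gave miR-96-5p 1 match in the CD274 3'UTR in place of 0.

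With the replicate number as a block, no member's call changed: miR-183-5p had -0.96, -1.23 and -0.27, miR-96-5p 0.44, 0.43 and -0.01, and miR-182-5p 0.53, 0.56 and 0.03 in the order of the comparisons, and 126 miRNAs were higher and 117 lower than in the MS2 control. The blocked ratio tests could not go below 0.25. Deviations of same-numbered libraries correlated across miRNAs at 0.13, 0.07 and 0.10 between PD-L1 3'UTR and MS2 control, where each library correlated best with its own number, at -0.00, -0.08 and 0.03 between PD-L1 3'UTR and input, and at -0.18, -0.13 and -0.11 between MS2 control and input, so the numbers were not taken to pair the libraries. Depth limits the partner strands and miR-1271-5p, which had at most 42 counts in a library.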
